A study of Mus musculus with 16 samples.

Results

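The 16 whole-lung arrays of this mouse asthma study carry replicate numbers 1 to 4 in each of 4 groups, and the arrays titled replicate 1 or 2 were compared with those titled replicate 3 or 4. That gave 8 arrays against 8, with 2 against 2 inside each group, and all 16 arrays of the series were used. The groups were BALB/c mice given PBS, BALB/c mice given ovalbumin (OVA), BALB-RAG mice given PBS and BALB-RAG mice given OVA, each with 4 arrays. OVA is an egg white protein used as a model allergen, and PBS is the saline control. Lungs came from day 22, with exposure completed 1 day earlier. The labels give no age, no allele for the BALB-RAG line and no meaning for the replicate numbers, and they name no processing batch. The line's name recalls Rag1 and Rag2, the genes that lymphocytes need to assemble their antigen receptors. Rag1 was not analysed here, and Rag2 lay between 2.84 and 4.20 log2 units on all 16 arrays, which is at or near background.

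A lung sampled whole is a mixture of alveolar and airway epithelium, endothelium, muscle, stroma and blood cells. Fewer cells of a type and less RNA per cell cannot be told apart in such a sample. Nearly every cell in it makes the proteins of the ribosome and of the mitochondrial respiratory chain, the complexes that pass electrons to oxygen and drive ATP synthase, so their messages are among the most abundant. The lung also keeps a circadian clock, in which Arntl and Clock (with its relative Npas2) switch on Nr1d1, Nr1d2, Dbp and the Per genes, and the products of Nr1d1 and Nr1d2 in turn repress Arntl.

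The tissue label was borne out by lung markers. The surfactant protein gene Sftpc lay between 14.00 and 14.55 log2 units on all 16 arrays, and Sftpd between 12.11 and 13.41. All arrays had the pattern of male tissue, with Xist between 2.65 and 3.32 and the Y-linked gene Eif2s3y between 8.12 and 9.39. Transcripts of B cells were present on arrays of the BALB-RAG line: Ms4a1, which encodes CD20, was at 4.36, 4.77, 6.17 and 5.23 in the PBS group, and at 2.05, 6.10, 2.38 and 2.94 in the OVA group for replicates 1 to 4. Results over all groups are therefore also given without the 4 PBS arrays and OVA replicate 2 of that line. The mean linear intensity of an array was between 176 and 192 in replicates 1 and 2 and between 159 and 182 in replicates 3 and 4, and it was lower in 3 and 4 in all 4 groups. The mean difference was -13.4 intensity units (exact permutation of the replicate pair within groups, two-sided p = 0.0031, adjusted over 4 array measures p = 0.0062, with 0.0015 as the smallest p that this design allows).

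The replicate pair was the second largest axis of variation among the arrays. On the second principal component, which held 17.9% of the variance over 7276 genes, the arrays of replicates 1 and 2 scored between 8.8 and 30.0 and those of replicates 3 and 4 between -27.6 and -2.8, with no overlap. The first component held 41.5% and set the BALB/c OVA arrays, with scores of 33.1 to 54.2, apart from the other 12 arrays. Each gene's sum of squares over the arrays was split into parts. The replicate pair took a median of 13.8%, the 4 groups 33.1%, the interaction of both 8.5% and the spread inside a pair 24.5%. For 1781 genes the pair was the largest of these parts.

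**Figure D1:**
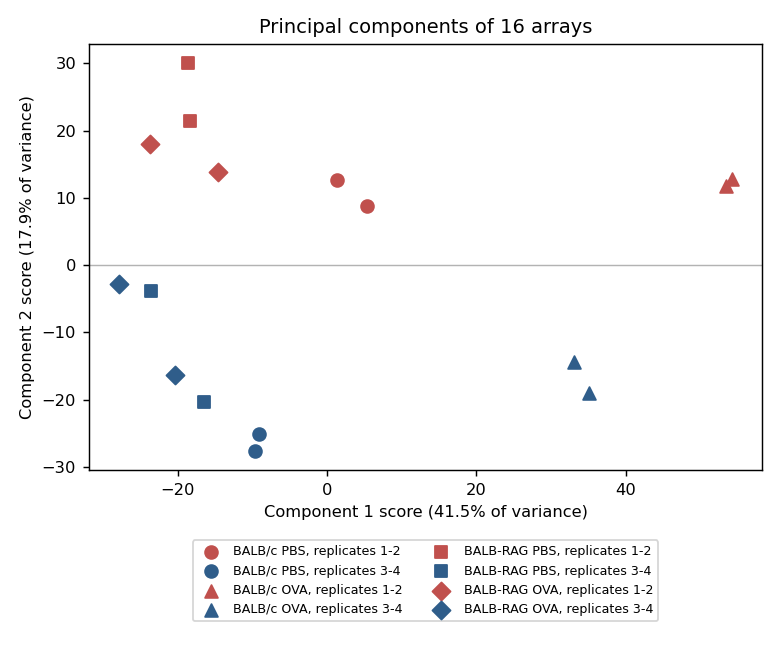
Scores of the 16 arrays on the first 2 principal components of log2 intensity over 7276 genes; colour gives the replicate pair and the marker the group. Replicates 1-2 all lie above 0 on component 2 and replicates 3-4 all lie below it.

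The pair difference was shared among the groups. Each array's deviation from its group mean was correlated with that of arrays in other groups, across genes, as a description. For the 48 array pairs of the same replicate pair, r was between 0.03 and 0.50 with a median of 0.31. For the 48 array pairs of opposite replicate pairs, r was between -0.46 and -0.02 with a median of -0.32.

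Of 7276 genes tested, 2770 differed between the replicate pairs over all groups (38.1%; limma, Benjamini-Hochberg adjusted p under 0.05). Of these, 1127 were higher in replicates 3 and 4 (15.5% of the genes tested) and 1643 were lower (22.6%). Before adjustment, 3431 of the genes tested had a limma p under 0.05. The balance of the directions moved with the scaling. On the values as deposited 40.7% of the calls were higher, against 58.1% after the arrays were centred on their medians and 53.2% after quantile normalisation, while the median difference over all genes was -0.06, 0.04 and 0.01 log2 units in that order. Large differences ran mostly downwards, since 171 called genes were over 1 log2 unit lower and 5 were over 1 log2 unit higher. In 2587 of the called genes (93.4%) the difference had the same sign in all 4 groups, against 49.1% of all genes tested. The calls were made on the same arrays, and a pooled call favours like signs in its parts. The 93.4% is therefore a description and no separate evidence of a shared difference. Without the 5 BALB-RAG arrays that carried lymphocyte transcripts, 2503 genes passed the test, and with the BALB/c arrays alone 2275 did. With the BALB-RAG arrays alone the count was 742. Without replicate 1 of every group 1703 genes passed, and without replicate 2 of every group 1788 did.

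Among genes that passed the test, the largest falls in replicates 3 and 4 included small subunits of the respiratory chain. The largest difference over all genes, at -2.19, did not pass it. Ndufc1, a small subunit of complex I, was at 8.78 and 8.40 in BALB/c PBS replicates 1 and 2 and at 6.57 and 6.89 in replicates 3 and 4. In BALB/c OVA it was at 8.79 and 8.70 against 6.73 and 6.60. In BALB-RAG PBS it was at 9.32 and 8.93 against 6.78 and 7.57, and in BALB-RAG OVA at 8.78 and 8.91 against 6.27 and 6.98. The 8 arrays of replicates 1 and 2 thus all lay above the 8 of replicates 3 and 4. The difference was -2.03 ± 0.13 log2 units (SE; limma adjusted p = 8.71e-08), or 4.08-fold lower.

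Atp5e, which encodes the epsilon subunit of ATP synthase, was between 10.17 and 10.65 in replicates 1 and 2 and between 7.93 and 9.03 in replicates 3 and 4 of the 4 groups. The median was 10.33 against 8.54, and the difference was -1.85 ± 0.12 (limma adjusted p = 9.15e-08). Atp5k, another small ATP synthase subunit, was 3.35-fold lower, with a difference of -1.74 ± 0.09 and group values of -1.68, -1.61, -1.89 and -1.79 for BALB/c PBS, BALB/c OVA, BALB-RAG PBS and BALB-RAG OVA. A second probe set of Atp5k gave -1.57 ± 0.13. Tmsb10, the actin-binding peptide thymosin beta 10, had the smallest p of the 12 leading falls. It was at 11.57, 11.68, 12.28, 12.31, 11.31, 11.61, 11.08 and 11.11 on the arrays of replicates 1 and 2 in the same group order, and at 10.05, 9.90, 10.61, 10.70, 9.99, 9.82, 9.70 and 9.52 in replicates 3 and 4. No array of either pair crossed into the range of the other, and the difference was -1.58 ± 0.07 (limma adjusted p = 3.36e-09).

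The other leading falls were of 2 kinds. 1110008P14Rik at -1.88 ± 0.15, Apoc1, an apolipoprotein gene, at -1.77 ± 0.15 and Mif, a cytokine gene, at -1.62 ± 0.13 fell by similar amounts in each group. Cidea, a lipid droplet gene of fat, was uneven. It was at 4.69 and 4.22 against 3.26 and 3.36 in BALB/c PBS, and at 3.35 and 3.21 against 2.98 and 2.90 in BALB/c OVA. In BALB-RAG PBS it was at 8.68 and 10.15 against 4.16 and 7.51, and in BALB-RAG OVA at 7.42 and 7.34 against 3.86 and 6.35. Its difference of -1.84 ± 0.53 (limma adjusted p = 0.014) thus rested mainly on the BALB-RAG arrays. Cox7a1, the muscle form of a cytochrome oxidase subunit, differed by -0.14 in BALB/c OVA and by -2.07, -2.81 and -2.40 in BALB/c PBS, BALB-RAG PBS and BALB-RAG OVA. Ly6d, a marker of B lineage and squamous cells, differed by -1.87 ± 0.42, Hamp, which encodes the iron hormone hepcidin, by -1.63 ± 0.26, and Ube2o, a ubiquitin-conjugating enzyme gene, by -1.61 ± 0.31.

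**Figure D2:**
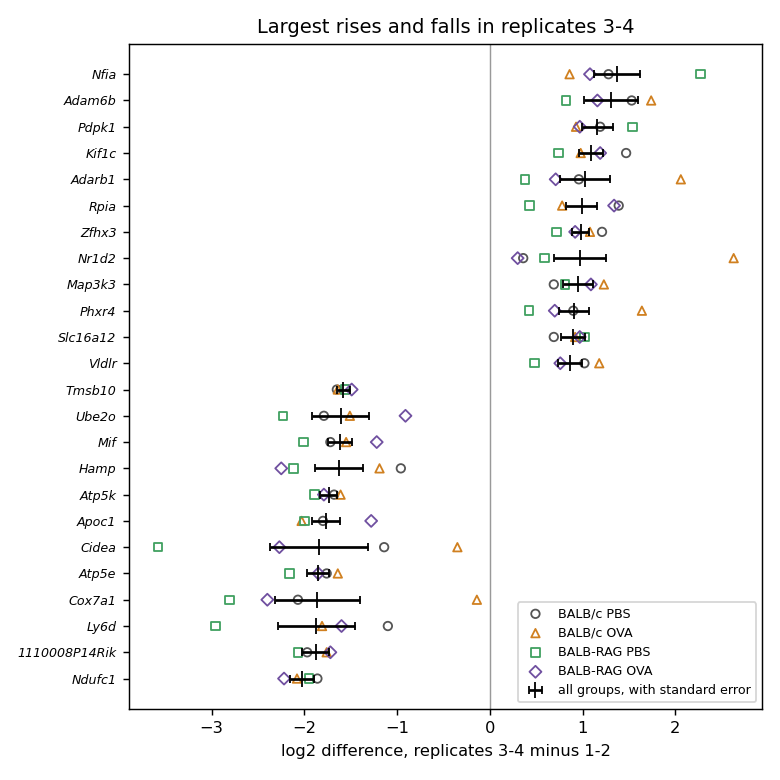
Difference of replicates 3-4 minus replicates 1-2 in log2 units for the 12 largest rises and 12 largest falls among genes that passed the test; open markers are the 4 groups and the black bar is the fit over all groups with its standard error. Ndufc1, Atp5e, Atp5k and Tmsb10 differ by like amounts in each group, while Cidea spans -3.58 to -0.35.

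The rises were smaller. Nfia, a transcription factor gene, was at 4.13 and 4.46 against 5.60 and 5.55 in BALB/c PBS, at 4.04 and 4.68 against 5.25 and 5.20 in BALB/c OVA, at 3.38 and 5.21 against 6.21 and 6.91 in BALB-RAG PBS, and at 5.23 and 4.80 against 6.04 and 6.14 in BALB-RAG OVA. Replicates 3 and 4 were above 1 and 2 in every group, and the difference was 1.37 ± 0.25 (limma adjusted p = 0.000683). Pdpk1, the kinase that activates AKT, rose by 1.16 ± 0.17 and did not overlap in any group. Zfhx3, a large zinc finger and homeobox factor gene, was between 6.00 and 7.14 in replicates 1 and 2 and between 7.24 and 8.09 in replicates 3 and 4, a difference of 0.98 ± 0.09 (limma adjusted p = 1.8e-06). A second probe set of Zfhx3, at a mean of 5.81, was at -0.30 ± 0.18 and did not pass the test. Kif1c, a kinesin motor gene, rose by 1.09 ± 0.13 on the probe set with its highest level, but another of its probe sets, at a mean of 5.44, fell by 0.36 (adjusted p = 0.0328 over all probe sets). Adam6b, Adarb1, Rpia, Map3k3, Phxr4, Slc16a12 and Vldlr rose by 1.31, 1.03, 0.99, 0.95, 0.91, 0.90 and 0.86. Adam6b was above log2 4 on 10 of 16 arrays, and its median of 3.63 in replicates 1 and 2 is at or near background. In BALB-RAG PBS the pairs overlapped for Adam6b, at 5.39 and 3.59 against 6.07 and 4.54, and for Rpia, at 7.38 and 7.55 against 8.49 and 7.30. Adarb1 overlapped in both BALB-RAG groups. Another probe set of Map3k3 was at -0.22 ± 0.22 and did not pass the test, while others of Vldlr rose by 0.75 and 0.46. Nr1d2 rose by 0.97 ± 0.28, and its difference was 2.63 in BALB/c OVA and 0.30 to 0.59 in the other 3 groups.

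Opposite calls for one gene were not limited to Kif1c. Of 395 genes with at least 2 called probe sets, 64 (16.2%) had probe sets called in opposite directions. Cald1, the caldesmon gene of smooth muscle, rose by 0.44 on one probe set and fell by 0.46 on another.

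Genes of the mitochondrial respiratory chain and ATP synthase fell together. Of 66 tested, 54 were lower in replicates 3 and 4 and 1 was higher, against 22.6% and 15.5% of all genes, and the median difference was -0.86 against -0.06 over all genes. In 48 of the 66, both arrays of replicates 3 and 4 were below both arrays of replicates 1 and 2 in all 4 groups, which held for 11.0% of all genes, while 7.53% of all genes were without overlap in the other direction. The mean level of the 66 genes was between 9.11 and 9.64 on the arrays of replicates 1 and 2 and between 8.30 and 8.87 on those of 3 and 4. After median centring 53 were lower and 4 higher, and after quantile normalisation 54 and 3.

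Each complex took part. Of complex I (Nduf) genes 23 of 29 were lower, of complex II (Sdh) 4 of 5, of complex III (Uqcr) 2 of 3, of cytochrome oxidase (Cox) 14 of 16 and of ATP synthase (Atp5) 11 of 13. Members that did not pass the test included large subunits: Sdha, the flavoprotein of complex II, at 0.14 ± 0.09, Ndufs1, the largest subunit of complex I, and Atp5a1 and Atp5b, the alpha and beta subunits of ATP synthase. The 1 rise was Cox15, a haem synthesis enzyme gene, at 0.35 ± 0.10. ND5, a complex I subunit encoded by the mitochondrial genome itself, was between 12.65 and 13.39 in replicates 1 and 2 and between 12.67 and 13.33 in replicates 3 and 4, and its difference of -0.10 ± 0.11 did not pass the test (limma adjusted p = 0.502).

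Muscle and fat are rich in these transcripts, and their markers moved in some groups. The adipose list had 7 of 20 genes lower and 1 higher, against 22.6% lower and 15.5% higher over all genes. The cardiac muscle list had 3 of 24 lower, a share below that of all genes. The mean level of the cardiac list differed by -0.41 in BALB/c PBS, 0.18 in BALB/c OVA, -0.93 in BALB-RAG PBS and -0.97 in BALB-RAG OVA. The respiratory chain list differed by -0.83, -0.67, -0.97 and -0.82 in the same order, and the adipose list by -0.41, -0.13, -0.77 and -0.56. The part of muscle or fat content in these differences was not tested.

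The ribosome gave the same picture. Of 34 ribosomal protein genes tested, 29 were lower and 0 higher, against 22.6% and 15.5% of all genes, with a median difference of -0.80. No member was called higher after either rescaling, and 27 were lower after each. The mean level of the 34 genes was between 11.37 and 11.64 in replicates 1 and 2 and between 10.53 and 11.06 in replicates 3 and 4. Rps18, Rps26 and Rpl37a differed by -1.26, -1.19 and -1.14, whereas Rpl4 at -0.19 ± 0.08, Rps6 at -0.18 ± 0.07 and Rpl12 at -0.16 ± 0.18 did not pass the test. Probe sets for ribosomal proteins can also bind processed pseudogenes and near copies, which makes single values uncertain. Among genes of the mitochondrial ribosome, a set added after the values were seen, 36 of 43 were lower and 0 higher, with a median of -0.65. Mrpl34 and Mrpl42 differed by -1.41 and -1.20. Of proteasome genes, which encode the protein-degrading barrel and its cap, 10 of 20 were lower and 0 higher, with a median of -0.27. Psmb3 and Psma7 differed by -0.89 and -0.81.

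**Figure D3:**
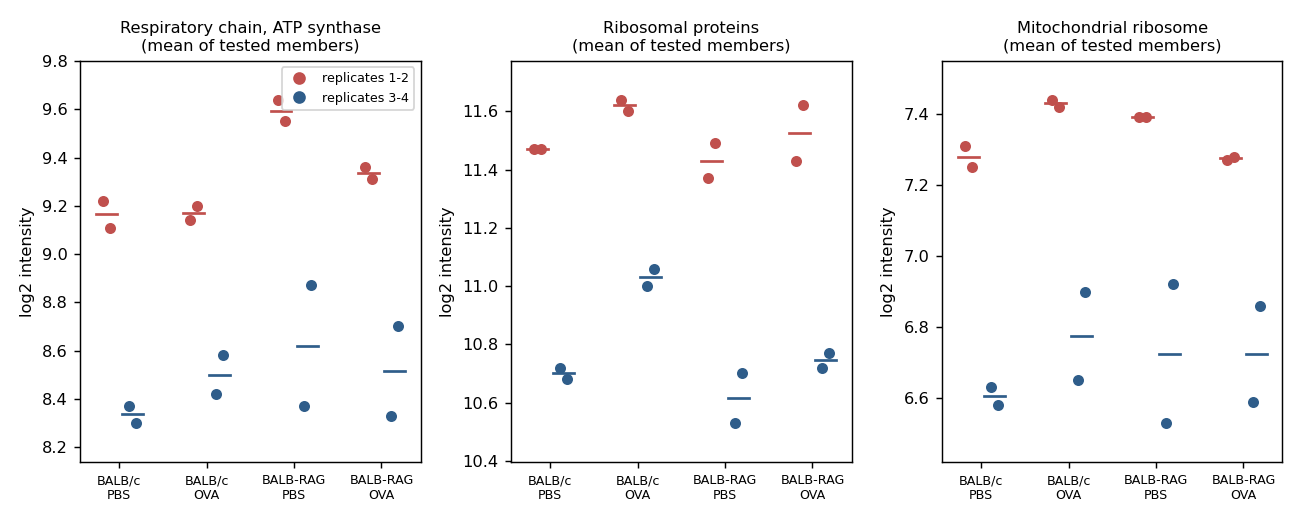
Mean log2 intensity of the tested genes of the respiratory chain and ATP synthase (66), the ribosome (34) and the mitochondrial ribosome (43) on each array, by group; points are arrays and bars are the mean of 2. In all 3 panels and all 4 groups the replicates 3-4 lie below the replicates 1-2.

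These groups consist of short genes, and the pair difference followed the genomic span of a gene (from transcript start to end, introns included). The median span was 3.45 kb for the ribosomal protein genes, 7.74 kb for the respiratory chain list and 24.9 kb over all tested genes. The genes were ordered by span and cut into 5 equal groups. In the shortest, up to 8.66 kb, 46.6% were lower and 3.58% higher in replicates 3 and 4, with a median difference of -0.33. In the longest, from 71.0 kb, 7.09% were lower and 29.8% higher, with a median of 0.12. Spearman's rho of span with the difference was 0.43 across 7262 genes, which share the same 16 arrays and are not independent replicates. Leaving out the ribosomal, mitochondrial ribosomal, respiratory chain and proteasome genes kept the slope, with a median of -0.30 in the shortest and 0.12 in the longest. The slope appeared in each group, since the shortest genes had medians of -0.39, -0.32, -0.34 and -0.26 and the longest 0.11, 0.11, 0.14 and 0.14 in BALB/c PBS, BALB/c OVA, BALB-RAG PBS and BALB-RAG OVA. The mean level of a gene was less related, with a rho of 0.16.

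**Figure D4:**
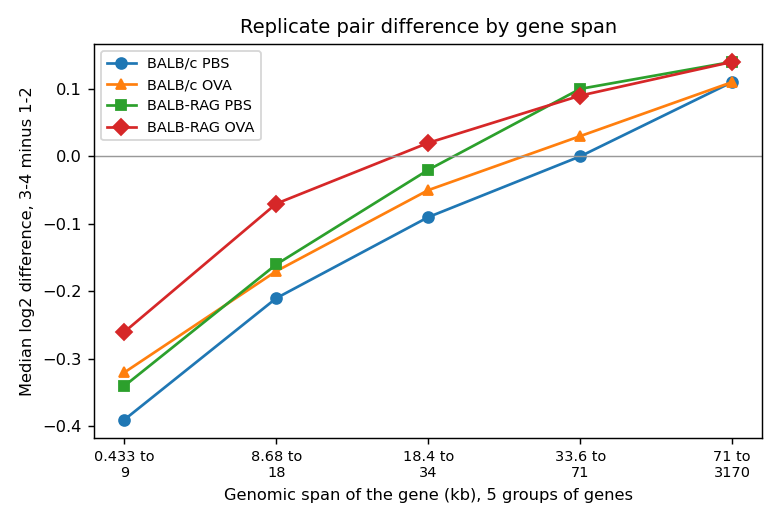
Median log2 difference of replicates 3-4 minus 1-2 for 5 equal groups of genes ordered by genomic span in kilobases, with 1 line per group of mice. All 4 lines climb from between -0.39 and -0.26 for the shortest genes to between 0.11 and 0.14 for the longest.

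Gene families of other spans were counted too, beside 15.5% higher and 22.6% lower over all genes. Of 43 tested genes of the Kmt, Kdm, Chd, Smarc, Arid and Setd families, chosen after the values were seen, 18 were higher and 6 lower, with a median of 0.13 and a median span of 50.9 kb. Kmt2a, a histone H3 methyltransferase gene, rose by 0.75 ± 0.09, and its relative Kmt2c by 0.51 ± 0.08. Smarcad1, a chromatin remodeller gene, fell by 0.79 and Arid1a by 0.57. Of 119 genes named Zfp, which encode zinc finger proteins, 24 were higher and 6 lower, with a median span of 16.4 kb, below that of all genes. Of 31 genes whose symbols start with Myo or Kif, 4 were higher and 2 lower, and both shares are below those of all genes. Their median span was 68.5 kb. Myosin and kinesin genes bear these prefixes, but other genes can share them. The Zfp set and this set were also chosen after the values were seen.

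Lists of lung cell types had calls in both directions, and the balance moved with the scaling. Over all genes 15.5% were higher and 22.6% lower on the values as deposited. The alveolar and matrix shares were near these, as were the shares of endothelial and club cell genes that fell. Of 16 alveolar epithelial genes 3 rose and 3 fell: Akap5, Emp2 and Rtkn2 by 0.62, 0.46 and 0.28, and Napsa, an aspartic protease that processes surfactant protein B, by 0.52, Ager by 0.30 and Aqp5 by 0.25. Of 23 endothelial genes 6 rose, among them the receptor genes Tek and Flt1 by 0.61 and 0.48, and 5 fell, among them Nos3, the nitric oxide synthase of endothelium, and Ramp2 by 0.59 and 0.53. After median centring the endothelial counts were 8 higher and 2 lower, and the alveolar counts 6 and 1; quantile normalisation gave 6 and 4, and 5 and 1. Of 15 club cell genes 5 rose and 3 fell, the latter being Scgb3a1, Cldn10 and Nupr1 by 0.96, 0.79 and 0.66. Of 30 extracellular matrix genes 6 rose, led by the laminin chain Lamb1 at 0.82, and 5 fell, led by elastin (Eln) at -0.78. After median centring 10 matrix genes were higher and 5 lower, and after quantile normalisation 11 and 4.

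Most immune and stress lists had more genes called lower than higher, while over all genes 22.6% were lower and 15.5% higher. Among 12 chemokine genes 4 fell and 0 rose, and among 12 macrophage genes 4 fell and 1 rose. Among 17 genes of the type 2 response and mucous epithelium 3 fell, a share below that of all genes, and 0 rose. Of 9 natural killer cell genes 0 passed the test in either direction, with a median of 0.16, and of 14 Nrf2 and detoxification genes 1 rose and 1 fell. Of 13 dendritic cell and MHC class II genes 6 fell and 0 rose, H2-DMa at -1.01 and H2-Ab1, a chain of the I-A molecule, at -0.69. Rescaling left 6 lower and 1 higher with median centring and 4 and 1 with quantile normalisation. Of 17 heat shock genes 7 fell and 0 rose. Hspe1, the mitochondrial co-chaperonin, was between 7.10 and 8.41 in replicates 1 and 2 and between 5.89 and 6.90 in replicates 3 and 4, a difference of -1.40 ± 0.11. Of 16 glucocorticoid-induced genes 6 fell and 2 rose. Mt1, a metallothionein gene, was at -1.39 ± 0.15, and Zbtb16 at -1.41 ± 0.39 with a group value of -3.11 in BALB/c PBS. Of 25 interferon response genes 4 fell, including Ifi27l2a at -1.39 and Bst2 at -0.93, and 3 rose, including Ifih1 by 0.55, and both shares are below those of all genes. Of 11 cholesterol synthesis genes 2 rose, Cyp51 by 0.85 and Idi1 by 0.57, a share near that of all genes on the values as deposited; 5 were higher after either rescaling.

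Within single groups the spread was that of all 8 group-by-pair means. The pair differed for 1007 genes in BALB/c PBS (13.8%), 1015 in BALB/c OVA (13.9%), 739 in BALB-RAG PBS (10.2%) and 296 in BALB-RAG OVA (4.07%). With the spread of each group's own 4 arrays, the counts were 993, 301, 0 and 0. Leaving out 1 array moved each of these counts by over 1.5 times, with the lowest counts at 249 without BALB/c PBS replicate 2, 324 without BALB/c OVA replicate 2, 415 without BALB-RAG PBS replicate 2 and 65 without BALB-RAG OVA replicate 3.

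In BALB/c PBS the largest rises among genes that passed the test were Egr3, Nr4a1 and Egr1, of the immediate early genes, which cells switch on within minutes of a stimulus. The list as a whole, with 23 tested genes, had a median of 0.15 in this group. Egr3 was at 6.27 and 3.95 in replicates 1 and 2 and at 9.28 and 8.62 in replicates 3 and 4, a difference of 3.84 ± 0.57 (limma adjusted p = 0.00213). Nr4a1 rose by 2.51 ± 0.58 and Egr1 by 2.42 ± 0.45. Egr1 was at 10.91 and 9.12 in replicates 3 and 4 of this group and between 6.92 and 8.03 on the other 14 arrays. Other members of the list were lower in this group, such as Maff, at 7.91 and 7.71 against 7.06 and 6.90, and Myc, at 5.63 and 5.19 against 4.85 and 4.78. Cttnbp2, a neuronal scaffold gene, rose by 1.64. The largest falls among genes that passed the test were S100a8, Zbtb16, Ccr1 and Clec4d, and larger differences, down to -3.80, did not pass it. S100a8, the calprotectin gene of neutrophils, was at 11.71 and 12.35 against 8.88 and 8.51, a difference of -3.33 ± 0.79 (limma adjusted p = 0.0187), while the chemokine receptor gene Ccr1 and Clec4d, a lectin receptor gene, fell by 2.66 and 2.62. The mean level of 10 neutrophil genes was 7.35 and 8.24 against 5.84 and 5.46. Platelet, erythroid and skeletal muscle genes moved with them in this group, by -1.30, -1.28 and -1.98 in mean level, and the muscle value rested on replicate 1 at 7.69 against 3.50 to 3.71 on the other 3 arrays. The part of blood or muscle content in these differences was not tested.

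In BALB-RAG PBS the largest falls among genes that passed the test were Cidea, S100a8, Ly6d and Ube2o, at -3.58, -2.97, -2.96 and -2.23. The largest rises were Nfia, Stk25, Pdpk1 and Ppip5k2, at 2.27, 1.60, 1.54 and 1.32. The last 3 of these encode kinases, of proteins or of inositol phosphates. S100a8 was at 9.43 and 12.71 against 8.37 and 7.83, so replicate 2 stood above the other 3 arrays; that array was also highest of its group in neutrophil, platelet, erythroid and skeletal muscle genes. Differences down to -3.81 in this group and -3.89 in BALB-RAG OVA did not pass. In BALB-RAG OVA the falls that passed the test were led by Hamp, Ndufc1, Atp5e and Atp5k, at -2.25, -2.22, -1.85 and -1.79, and the rises by Rpia, Kif1c, Frrs1 and Ofd1, at 1.34, 1.19, 1.10 and 1.07.

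In BALB/c OVA the falls that passed the test were led by Mmp13, Npy, Fxyd4 and F5. Mmp13, a collagenase gene, was at 8.80 and 9.83 in replicates 1 and 2 and at 5.69 and 5.58 in replicates 3 and 4, a difference of -3.68 ± 0.27 (limma adjusted p = 9.6e-05). Npy, which encodes neuropeptide Y, was at 7.27 and 7.79 against 4.61 and 4.22. Fxyd4, a regulator of the sodium pump, and F5, coagulation factor V, fell by 2.89 and 2.86. Slfn4, a schlafen gene of myeloid cells, rose by 3.91 ± 1.11 (limma adjusted p = 0.0394) from 4.89 and 4.84 to 9.81 and 7.75. Nr1d1, Nr1d2 and Dbp, output genes of the clock, rose by 3.43 ± 0.35, 2.63 ± 0.27 and 2.58 ± 0.39.

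Whether the response to OVA depended on the replicate pair was tested as an interaction in each line. In BALB/c 9 genes passed (0.124% of 7276), and 550 had an unadjusted p under 0.05 in limma. The signed OVA-minus-PBS difference was higher in replicates 3 and 4 for 6 of the 9 and lower for 3. The 6 include Fabp1 and Fgfbp1, which were lower with OVA in both pairs, by less in replicates 3 and 4. In BALB-RAG limma called 0 genes (0%), with 271 at an unadjusted p under 0.05. Leaving out 1 array gave 4 to 16 genes in BALB/c, and without BALB-RAG OVA replicate 1, BALB-RAG PBS replicate 1 or BALB-RAG PBS replicate 4 the count in BALB-RAG was 7, 5 and 3. Leaving out each of the 16 arrays in turn kept the calls of Klra7, Fxyd4 and Mmp13 each time, those of Nr1d1 and Pla2g2d 13 times, and those of Klra8, Fgfbp1, Fabp1 and Dbp 12, 11, 8 and 6 times, with the direction unchanged throughout.

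The clock genes Nr1d1 and Dbp were among the 9. Nr1d1 was at 3.18, 3.63, 2.64 and 3.01 in BALB/c PBS replicates 1 to 4, at 2.39, 3.06, 6.20 and 6.12 in BALB/c OVA, at 6.97, 6.14, 6.05 and 6.44 in BALB-RAG PBS and at 5.73, 6.70, 5.62 and 5.52 in BALB-RAG OVA. The first 2 BALB/c OVA arrays were thus as low as the BALB/c PBS arrays, and the last 2 as high as the BALB-RAG arrays. The OVA-minus-PBS difference in BALB/c was -0.68 ± 0.35 in replicates 1 and 2 and 3.33 ± 0.35 in replicates 3 and 4, an interaction of 4.01 ± 0.50 (limma adjusted p = 0.0106). All BALB/c values other than the last 2 were below log2 4, at or near background. Dbp, a clock-driven transcription factor gene, was at 4.36, 4.40, 3.78 and 3.26 in BALB/c PBS, at 4.29, 4.34, 6.97 and 6.81 in BALB/c OVA and between 7.04 and 8.50 on the 8 BALB-RAG arrays. Its interaction was 3.44 ± 0.55 (limma adjusted p = 0.0489, and up to 0.249 with 1 array left out).

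Of the activators of the clock, Arntl and Npas2 were lower in replicates 3 and 4 of BALB/c OVA, without passing the interaction test. Arntl was at 6.33, 6.47, 5.60 and 5.72 in BALB/c OVA, between 6.89 and 7.83 in BALB/c PBS and between 3.88 and 5.72 on the BALB-RAG arrays, with an interaction of -1.41 ± 0.58 (limma adjusted p = 0.584). Npas2 was at 5.98, 6.23, 3.97 and 4.10 in BALB/c OVA. Clock itself was at 8.10, 8.24, 8.52 and 8.34 there, and it rose over all groups by 0.57 ± 0.10 (limma adjusted p = 0.000357). Over the 11 tested genes of the Dbp phase the median pair difference was 0.88 in BALB/c OVA and 0.03, -0.04 and -0.16 in the other 3 groups, and over 5 genes of the Arntl phase it was -0.74 in BALB/c OVA and between 0.13 and 0.39 elsewhere. Members of the first list that were not higher in replicates 3 and 4 of BALB/c OVA included Hlf, at 4.14 and 5.03 against 4.11 and 4.05, and Usp2, at 3.63 and 4.31 against 3.61 and 3.43. Bhlhe40 was at 10.06 and 9.84 against 9.72 and 9.72, and Ciart had a difference of -0.06. The labels give no hour of harvest.

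The protein products of Arntl and Clock bind the E-box, CACGTG, which reads the same on both strands. It was searched in the 250 bases before the start sites that RefSeq gives on GRCm38.p6. Of the 9 clock genes of the Dbp phase with such a sequence, 2 held it before any of their start sites, Tef and Ciart. Among all 32851 upstream sequences, counted singly, 6.02% held it. A gene with several start sites, such as Tef, has several sequences. The share of genes therefore cannot be compared with the share of sequences, and enrichment was not tested. A match is only a match of letters, and none was found in the windows of Nr1d1 or Dbp. The windows around the motif are shown because Tef was one of the 2 genes of its list that rose over all groups (by 0.49 ± 0.18, limma adjusted p = 0.045, kept in 6 of 16 fits with 1 array left out), while Ciart, at -0.10 ± 0.19, did not pass the test. Ciart held the motif at 3 places, of which those 58 and 44 bases before its start site are not shown because their windows overlap. Capitals mark the motif, and each stretch is given 5′ to 3′ on the gene's strand.
Tef, chr15:81802529-81802568, plus strand: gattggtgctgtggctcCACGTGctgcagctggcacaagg
Tef, second start site, chr15:81811259-81811298, plus strand: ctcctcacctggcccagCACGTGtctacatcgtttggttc
Ciart, chr3:95882322-95882361, minus strand: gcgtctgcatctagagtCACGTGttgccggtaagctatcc

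Some natural killer cell genes had opposite pair differences in the BALB/c groups. Klra7, an inhibitory Ly49 receptor gene, was at 4.48 and 4.75 against 3.07 and 2.76 in BALB/c PBS and at 4.66 and 4.17 against 6.68 and 6.02 in BALB/c OVA. On the 8 BALB-RAG arrays it was between 2.31 and 2.95, near background. The interaction in BALB/c was 3.64 ± 0.37 (limma adjusted p = 0.00301). Klra8, a Ly49 relative with a near-identical sequence family around it, had an interaction of 3.39 ± 0.45 (limma adjusted p = 0.0121). Cross-hybridisation among Ly49 genes makes it uncertain which member was measured. Gzma, the granzyme A gene of cytotoxic cells, was at 9.34 and 9.18 against 7.64 and 7.52 in BALB/c PBS and at 8.31 and 8.03 against 9.86 and 10.14 in BALB/c OVA; its interaction of 3.51 ± 0.71 did not pass the test (limma adjusted p = 0.143). Over the 9 tested genes of the natural killer list the median pair difference was -1.05 in BALB/c PBS, 1.47 in BALB/c OVA and 0.18 in both BALB-RAG groups. Il2rb and Ctsw were lower on average in replicates 3 and 4 of both BALB/c groups. Il2rb was at 4.64 and 4.01 against 3.82 and 2.94 with PBS and at 5.46 and 4.76 against 4.52 and 4.80 with OVA. Ctsw was at 5.62 and 5.14 against 4.88 and 4.86 with PBS and at 7.07 and 6.74 against 6.23 and 6.86 with OVA. In the same group order the medians over all genes were -0.10, -0.07, -0.04 and 0.00.

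Among the other interaction genes, Mmp13 had the smallest p. It was at 2.62, 2.60, 3.42 and 3.70 in BALB/c PBS, so that OVA minus PBS was 6.71 ± 0.27 in replicates 1 and 2 and 2.07 ± 0.27 in replicates 3 and 4, an interaction of -4.63 ± 0.38 (limma adjusted p = 0.000607). The PBS values were below log2 4, at or near background. Fxyd4 was at 7.14 and 7.97 against 4.96 and 4.38 in BALB/c OVA and between 4.06 and 4.63 on the other 12 arrays, an interaction of -3.06 ± 0.36. Pla2g2d, a secreted phospholipase gene, was at 5.14 and 5.05 against 3.61 and 3.74 in BALB/c OVA, with an interaction of -1.96 ± 0.25. Fabp1 and Fgfbp1 fell outside the rule for named genes and are given to complete the 9. Fabp1, a fatty acid binding protein gene, had OVA-minus-PBS differences of -3.95 ± 0.23 in replicates 1 and 2 and -1.81 ± 0.23 in replicates 3 and 4. For Fgfbp1, a carrier of fibroblast growth factors, they were -2.87 ± 0.23 and -0.57 ± 0.23.

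**Figure D5:**
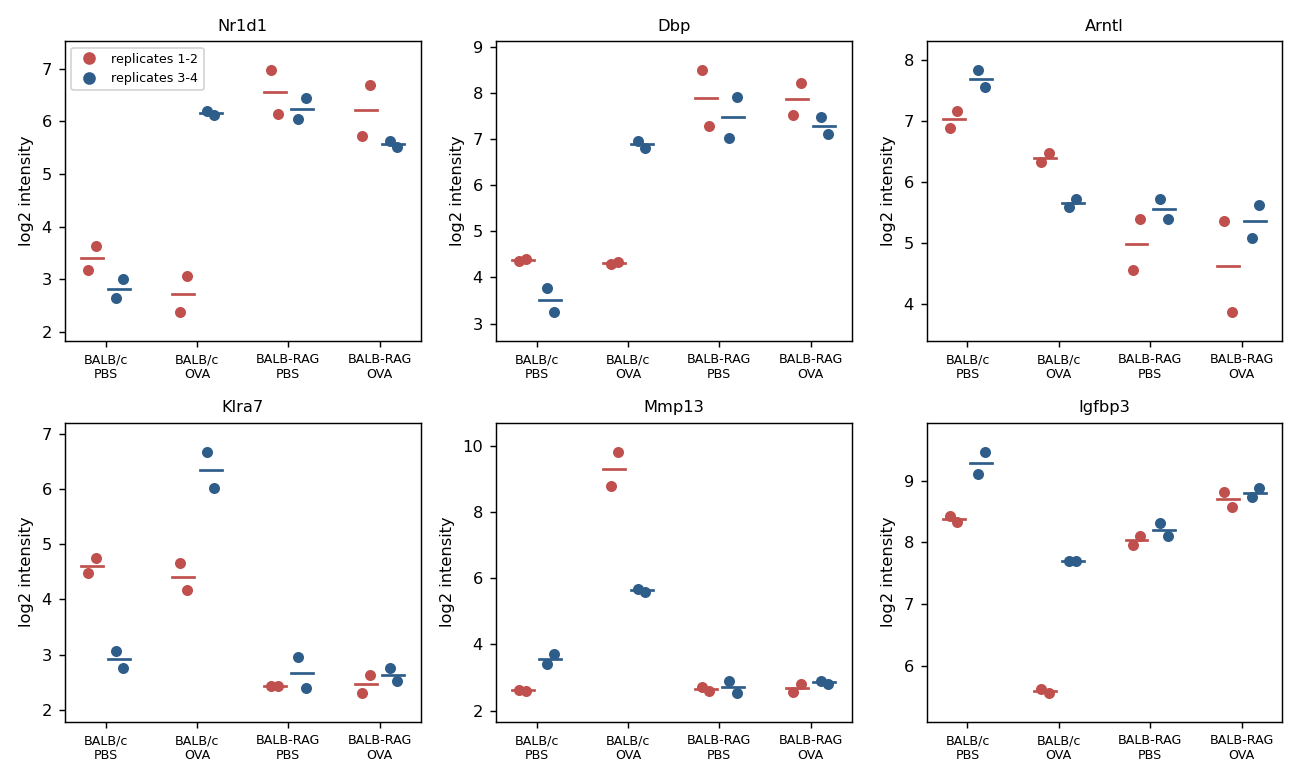
Log2 intensity on each array of the clock genes Nr1d1, Dbp and Arntl, the natural killer receptor gene Klra7, the collagenase gene Mmp13 and Igfbp3, by group; points are arrays and bars are the mean of 2. In BALB/c OVA the replicate pairs do not overlap for any of the 6 genes.

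The last comparison asked whether the pair difference itself depended on the line, averaged over both exposures. It called 1 gene (0.0137%; 746 had an unadjusted p under 0.05). Igfbp3, which encodes a binding protein of insulin-like growth factors, was at 8.43 and 8.33 against 9.10 and 9.47 in BALB/c PBS and at 5.63 and 5.57 against 7.70 and 7.70 in BALB/c OVA. In BALB-RAG it was at 7.96 and 8.11 against 8.31 and 8.10 with PBS and at 8.81 and 8.58 against 8.73 and 8.88 with OVA. The difference between the lines was -1.36 ± 0.15 log2 units, BALB-RAG minus BALB/c (limma adjusted p = 0.0166). The call was lost when all rows of the table were tested. The call of Igfbp3 was kept in 10 of 16 fits with 1 array left out, and the count ranged between 0 and 17 genes, the latter without BALB-RAG OVA replicate 1.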

How the data were processed

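Total RNA of whole lung was isolated with TRIZOL and labelled as biotinylated cRNA from 6 µg, per the labels' protocols. The authors deposited intensity values on a linear scale, made with GCRMA per the submitters' processing notes (version not given in the sources used here). They ranged from 2.32 to 35181; log2 was taken without further normalisation. The number of arrays limits the precision. Whether replicates are separate animals is not stated; the p-values then cover only the scatter among these samples, which may be technical.

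In the stretches used here, probe set labels of the deposited table did not match the values beside them. In these 3 stretches, 14300 of 45101 labels were moved, to values 64 rows above, 47 rows below and 16168 rows below, and the rest were dropped. An earlier realignment gave the second shift as 47 rows above. Probe sets of one gene there had a median correlation of 0.499 with values 47 rows below, 0.226 as deposited and 0.171 with those 47 rows above (637, 437 and 440 pairs above log2 6), so the shift below was used. This step was tuned on these data, and single names may be wrong. Platform annotation gave 13146 of the labels 1 symbol, 366 several and 788 none; each of 9866 genes was represented by its probe set of highest mean. The 7276 genes above log2 4 on at least 4 arrays were tested.

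limma 3.58.1 (R 4.3.3) was fitted with group and replicate pair over 16 arrays (11 residual degrees of freedom), and with 8 group-by-pair means (8 degrees of freedom) for single groups and interactions. Adjustment was by Benjamini-Hochberg over all genes at 0.05. The code was tested on simulated data. Alternatives were filters, a floor, centring, quantile normalisation, probe sets, array weights, the prior, the replicate block and left-out arrays. Members and lists were chosen with earlier results of these data known. Genes named were 12 rises and 12 falls, the largest that passed the test over all groups, the 4 largest of each past it in every other comparison, and, past it or not, up to 4 genes of each list with the smallest p, and Rag2; other names were chosen once values were known.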

Additional observations from a re-analysis of the deposited data

Results flagged for a closer look

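The mean levels of 12 gene lists were examined in each group of 4 arrays, 48 sets of values, of which chance would set apart about 1 in 20, and in 10 of them 1 array stood apart from the other 3. Muscle genes did so on single arrays: the skeletal muscle list was at 7.69 in BALB/c PBS replicate 1 against 3.50 to 3.71 on the others, and at 8.09 in BALB-RAG PBS replicate 2 against 3.97 to 4.25. That BALB-RAG PBS replicate 2 also had neutrophil genes at 7.97 against 5.51 to 5.90. BALB-RAG OVA replicate 3 was low in cardiac muscle genes, at 6.83 against 8.45 to 8.71, and in adipose genes, at 7.33 against 8.18 to 8.31. Clock genes stood apart on BALB-RAG arrays: the Dbp phase at 7.94 in OVA replicate 2 against 7.50 to 7.56, and the Arntl phase at 5.75 in the same array against 6.50 to 6.64 and at 5.80 in PBS replicate 1 against 6.24 to 6.30. In BALB/c OVA, erythroid genes were at 6.92 in replicate 3 against 7.15 to 7.19, and glucocorticoid-induced genes at 8.25 in replicate 4 against 8.53 to 8.58.

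The OVA response of 9 genes in BALB/c mice differed between the replicate pairs by the test of the difference itself. The interaction was 4.01 for Nr1d1, 3.64 for Klra7, 3.44 for Dbp, 3.39 for Klra8, 2.30 for Fgfbp1, 2.14 for Fabp1, -1.96 for Pla2g2d, -3.06 for Fxyd4 and -4.63 for Mmp13, in log2 units. The pair difference of Igfbp3 differed between the lines by -1.36.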

How the results depend on the processing

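Counts of called genes are given below where they moved by over 1.5 times. Over all groups 2770 of 7276 genes became 8139 over all rows without names. That setting filtered all 45101 rows of the table, so its counts come from a larger set and do not show a larger share. The count was 742 with BALB-RAG, 1452 with PBS and 1103 with OVA arrays alone. It was 1707 without the second stretch of labels (an alternative chosen after seeing the data, with 4148 genes tested), and 1703 to 2782 with arrays or replicate numbers left out. For BALB/c PBS, BALB/c OVA, BALB-RAG PBS and BALB-RAG OVA, all rows, again the larger set, gave 2354, 2530, 1638 and 752. The group's own spread gave 301, 0 and 0 in the last 3. Array weights gave 1855 in BALB/c PBS and 236 in BALB-RAG PBS. Without the second stretch the BALB/c counts were 655 and 656. Leaving out 1 array gave 249 to 1227, 324 to 1237, 415 to 929 and 65 to 375. For the OVA response by pair in BALB/c, 9 genes became 24 without a filter, 1 with log2 above 4 on all arrays, 19 with array weights, 15 with a trend and robust prior, 4 with the second stretch 47 rows above, and 4 to 16 with an array left out. In BALB-RAG the last range was 0 to 7. For the pair difference by line, 1 gene became 8 without a filter, 3 with a floor at log2 4, 0 over all rows, 0 without the second stretch, and 0 to 17 with an array left out.

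The replicate numbers did not pair the samples, since same-numbered arrays correlated at -0.33 to 0.20 after removal of group-by-pair means. With the replicate block as a random term (correlation -0.049), 3108 genes were called over all groups. With it as a fixed term the interaction counts were 7 in BALB/c, 0 in BALB-RAG and 0 for the line.

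Where leaving out an array left a pair with 1, that array was assumed to vary like the others. For named genes, 5364 of 6052 values kept direction and call, 666 kept direction and lost the call, and 22 changed sign. S100a8 was at 0.07 over all groups with OVA arrays alone. Kif1c was represented by another probe set without the second stretch, at -0.36 over all groups and -0.54 in BALB-RAG OVA. With the second stretch 47 rows above, where the names then belong to other rows, the values over all groups were -0.11 for Nfia, -0.48 for Kif1c, 0.08 for Glul, 0.34 for Hspe1, 0.42 for Hspb1, -0.68 for Cyp51, 0.32 for Bst2, 0.14 for Cd3e, 0.07 for Ighg3, 0.21 for H2-DMa, 0.12 for Cldn10, -0.49 for Kdm5d and 0.16 for Psma7. In single groups they were -0.17 for Egr3 (BALB/c PBS), -0.03 for Nr1d1 (BALB/c OVA), -0.15 for Nfia (BALB-RAG PBS), and -0.37 for Kif1c and -0.06 for Frrs1 (BALB-RAG OVA). For Igfbp3 the line difference was 0.16. The cause of the other changes was not tested.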

Other observations

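The medians of the lymphocyte lists were below 0 in replicates 3 and 4, and most members did not pass the test. Over all genes 22.6% were lower and 15.5% higher. Of 17 B cell genes 5 were lower and 0 higher over all groups, with a median of -0.45. Of 15 T cell genes 2 were lower and 0 higher, a share below that of all genes, with a median of -0.51. After median centring the lower calls were 2 of the B cell list and 0 of the T cell list. Of 8 plasma cell and immunoglobulin genes 3 were lower and 1 higher, with a median of -0.67. The B cell medians were -0.37, -0.72, -0.08 and -0.61 in BALB/c PBS, BALB/c OVA, BALB-RAG PBS and BALB-RAG OVA. BALB-RAG OVA replicate 2, an array of the first pair, carried Igha at 10.97 against 3.98, 3.59 and 5.52 on the other arrays of its group, and its part in those medians was not tested.

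Of 25 cell cycle genes 6 were lower and 0 higher, near the share of all genes, with a median of -0.28. Of 4 platelet genes Gp9 and Clec1b, both encoding platelet receptors, differed by -1.11 and -1.38, and the list's median was -1.33, -0.37, -1.64 and -0.21 in the same group order. Among 7 sex-linked genes 3 were higher and 0 lower, against 15.5% and 22.6% of all genes.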
